A study of Homo sapiens with 4 samples.

Results

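ISG15 and the 5 genes that attach it to proteins or remove it were followed in RNA-seq counts of A549 cells, a line derived from a human lung adenocarcinoma, after small interfering RNA (siRNA) to SBF2-AS1, a long non-coding RNA. The genes were ISG15, UBA7, UBE2L6, HERC5, HERC6 and USP18, 6 of 40205 gene symbols in the count table, and all 6 were measured well enough to be tested. They were selected on membership of this system and on their level in the same comparison described here, knockdown against control, so their own differences are given as a description with no test. The groups were 2 libraries of A549 cells that received siRNA to SBF2-AS1, Knockdown-670 and Knockdown-732, and 2 libraries of A549 cells that received a negative control siRNA, called NC-1 and NC-2. All 4 were transfected with Lipofectamine iMAX and harvested at 24 h. The model is 1 cell line at 1 time, the labels do not say what the numbers in the knockdown names stand for, and nothing says that the libraries of a group came from separate cultures, so each p-value rests on a spread between libraries that may be technical.

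ISG15 is a small ubiquitin-like protein made of a pair of ubiquitin folds, and it is attached to lysines of other proteins by a cascade that parallels ubiquitylation. UBA7 is the E1 that activates it, UBE2L6 is the E2 that carries it, and HERC5 is the main E3 ligase for it in human cells. HERC6 is the close relative of HERC5 that takes this role in mice, while USP18 is the protease that takes ISG15 off again and also binds the interferon receptor subunit IFNAR2, where it dampens signalling. Genes of the system are known as targets of type I interferon, whose transcription factor ISGF3, which holds STAT2 and IRF9, binds a promoter element called the interferon-stimulated response element (ISRE).

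The libraries held 12149767 and 12894529 counts in Knockdown-670 and Knockdown-732 and 12701132 and 12938143 in NC-1 and NC-2. SBF2-AS1 had 15 and 18 counts in the knockdown libraries and 57 and 79 in the controls. Its log2 fold change (log2FC) was -1.94 ± 0.30 (SE, the standard error; adjusted p = 3.19e-05 in edgeR). All 10 A549 and epithelial markers were above 1 CPM (counts scaled to a common library size). Their summed level was 9147 and 9166 CPM in the knockdown libraries and 15260 and 14330 CPM in the controls. Of these markers, 8 were lower in knockdown and 1 was higher, where 22.8% and 23.5% of all genes tested were. Of 15 immune markers, 8 had no count in any library (CD3E, CD3D, MS4A1, HLA-DRA, NKG7, CLEC4C, IL3RA and TYROBP). The summed level of the immune list was 197 and 176 CPM in the knockdown libraries and 75.2 and 73.2 CPM in the controls, and most of it was CD68, a lysosomal protein, with 181 and 160 CPM in the knockdown libraries and 56.6 and 57.8 CPM in the controls. PTPRC, which marks leukocytes, had 1 and 0 counts in the knockdown libraries and 0 and 0 in the controls. CD14 and ITGAM of the same list were detected in every library. CD14 had 102 and 122 counts in the knockdown libraries and 156 and 131 in the controls. ITGAM had 72 and 66 counts in the knockdown libraries and 76 and 62 in the controls. Fibroblast and endothelial markers summed to 15.7 to 20.2 and 0.425 to 0.630 CPM in the knockdown libraries, against 14.4 to 15.9 and 0.541 to 0.831 CPM in the controls, with CLDN5 at 0. The part of these shifts in the values below was not tested. In such bulk libraries, fewer cells of a type and less RNA per cell cannot be told apart.

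The promoters of the genes differed in whether they hold the letters of an ISRE core. RefSeq promoter windows on GRCh38.p14, each 300 bases long and ending 50 bases past the gene's start, were found for 4 of the 6 genes, with 5 windows in all since UBE2L6 has a pair of starts. Each window was searched on both strands for the ISRE core GAAANNGAAA, and matches that overlap were counted separately. The ISG15 window held 2 overlapping matches, at bases -113 to -104 and -107 to -98 from the start. The HERC5 window held 3 on the strand opposite to the gene, an overlapping pair at -125 to -116 and -119 to -110 and another at -74 to -65. No match was in the HERC6 window or in either UBE2L6 window, which says only that these letters are not in those bases. Of 35116 windows of the same length, 3.57% held at least 1 match. The 250 bases before the start are shown for ISG15, the gene with the largest difference of the 6, and for the neighbouring HERC5 and HERC6, which differ in their matches. All are 5′ to 3′ on the + strand, at chr1:1013247-1013496, chr4:88456869-88457118 and chr4:88378602-88378851, and capitals mark the ISRE-core matches.

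ISG15: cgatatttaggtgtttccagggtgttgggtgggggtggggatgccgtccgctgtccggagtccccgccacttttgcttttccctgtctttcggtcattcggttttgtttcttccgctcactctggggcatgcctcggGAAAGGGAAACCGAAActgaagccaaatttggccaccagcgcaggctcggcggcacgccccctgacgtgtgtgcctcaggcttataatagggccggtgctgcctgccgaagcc
HERC5: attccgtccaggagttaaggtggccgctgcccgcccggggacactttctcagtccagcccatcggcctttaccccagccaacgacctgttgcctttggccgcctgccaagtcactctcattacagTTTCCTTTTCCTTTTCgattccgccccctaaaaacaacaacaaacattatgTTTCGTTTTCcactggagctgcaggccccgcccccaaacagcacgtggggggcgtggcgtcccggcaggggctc
HERC6: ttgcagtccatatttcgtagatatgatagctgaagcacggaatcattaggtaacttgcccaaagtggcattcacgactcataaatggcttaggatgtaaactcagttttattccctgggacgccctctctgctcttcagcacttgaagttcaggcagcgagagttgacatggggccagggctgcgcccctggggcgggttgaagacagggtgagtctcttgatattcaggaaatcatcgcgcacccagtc

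**Figure D1:**
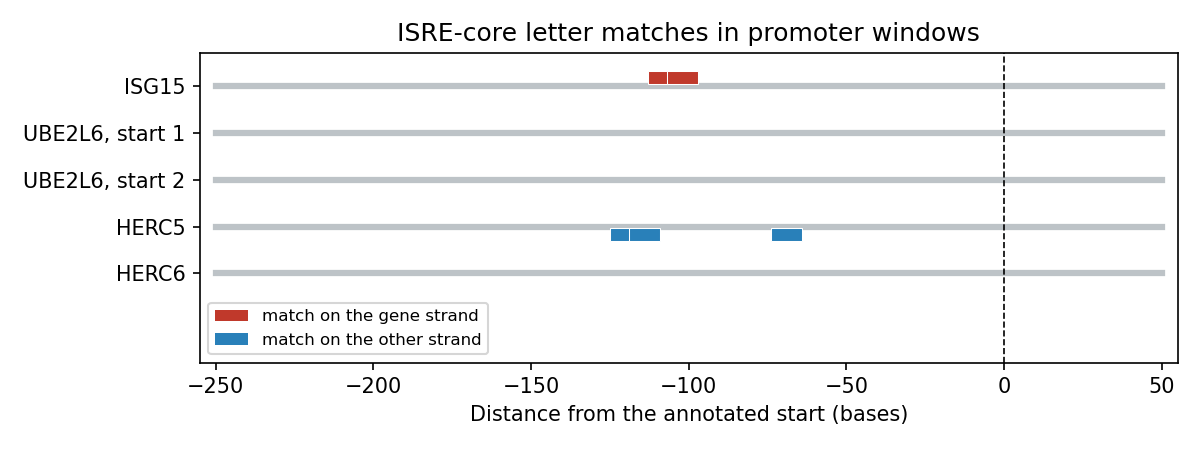
Positions of ISRE-core matches in the RefSeq promoter windows of 4 genes, by distance in bases from the annotated start (dashed line). Grey bars are the windows searched, red blocks are matches on the gene strand and blue blocks are matches on the other strand; ISG15 shows 2, HERC5 shows 3, and HERC6 and both UBE2L6 starts show 0.

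Levels below are CPM scaled with TMM (edgeR's trimmed mean of M-values, which corrects the library size for composition), and the SE of a log2FC comes from edgeR. ISG15, the modifier itself, showed the largest difference of the 6. It had 2491 and 2654 counts in Knockdown-670 and Knockdown-732, which is 211.5 and 209 CPM, against 124 and 129 counts in NC-1 and NC-2, which is 9.59 and 9.75 CPM. The libraries of each group lay close together, and the groups were far apart. The mean was 210.3 ± 1.69 CPM in knockdown and 9.67 ± 0.115 CPM in control (SD, n = 2 each), a log2FC of 4.44 (SE 0.09), or 21.7-fold. Among 16120 genes tested, this was the 10th largest log2FC.

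The E1 enzyme, UBA7, was the scarcest of the 6 per kilobase of exon. It had 85 and 65 counts in the knockdown libraries (7.22 and 5.12 CPM) and 11 and 19 in the controls (0.851 and 1.44 CPM). Every knockdown value was above every control value, with the widest relative spread of the 6 genes. Its 95% Poisson intervals, exact and for counting error alone, ran from 5.77 to 8.93 and 3.95 to 6.53 CPM in Knockdown-670 and Knockdown-732, and from 0.425 to 1.52 and 0.865 to 2.24 CPM in NC-1 and NC-2. The log2FC was 2.41 (SE 0.31), and the 4 possible pairs of a knockdown and a control library gave folds between 3.57 and 8.49.

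The E2 enzyme, UBE2L6, was the most abundant of the 6 in the controls per kilobase of exon. It had 131 and 128 CPM in Knockdown-670 and Knockdown-732 and 43.8 and 43.5 CPM in NC-1 and NC-2. The difference was even between libraries, with folds of 2.93 to 3.01 over the 4 library pairs and a log2FC of 1.57 (SE 0.08). Its closest relative among the E2 enzymes, UBE2L3, which serves ubiquitin, had 49.7 ± 1.70 CPM in knockdown and 48.3 ± 1.82 CPM in control (SD, n = 2 each), and did not pass the test (log2FC 0.04 ± 0.09 SE, adjusted p = 0.74 in edgeR). The sign of that small value turned with library size only (-0.023) and without NC-1 (-0.003). Per kilobase of exon the level of UBE2L6 was 58.9 ± 0.824 CPM per kb in knockdown and 19.9 ± 0.0974 in control, and that of UBE2L3 was 12.9 ± 0.443 in knockdown and 12.6 ± 0.474 in control (SD, n = 2 each).

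The paired HERC genes differed in size of response. HERC5 had 47.7 and 49.2 CPM in Knockdown-670 and Knockdown-732 and 9.05 and 8.01 CPM in NC-1 and NC-2, a log2FC of 2.51 (SE 0.12). HERC6 had 18.4 and 22.1 CPM in the knockdown libraries and 9.20 and 10.4 CPM in the controls, a log2FC of 1.05 (SE 0.15). Per kilobase of exon their control levels overlapped, while in knockdown HERC5 was above HERC6 in both libraries. On that scale the ratio of HERC5 to HERC6 was 3.15 and 2.70 in Knockdown-670 and Knockdown-732, against 1.20 and 0.934 in NC-1 and NC-2. The HERC pair are neighbours on chromosome 4 in the same orientation, and the next HERC gene along, HERC3, had 11.7 ± 0.331 CPM in knockdown and 7.29 ± 0.694 CPM in control (SD, n = 2 each), and its log2FC was 0.68 ± 0.16 (SE; adjusted p = 0.00226 in edgeR).

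The protease, USP18, had a difference that overlapped that of HERC6. It had 155 and 187 counts in Knockdown-670 and Knockdown-732 (13.2 and 14.7 CPM) and 112 and 96 counts in NC-1 and NC-2 (8.66 and 7.26 CPM). The groups did not overlap, but the exact Poisson intervals of Knockdown-670 (11.2 to 15.4 CPM) and NC-1 (7.13 to 10.4 CPM) lay close together. The log2FC was 0.81 (SE 0.16), with folds of 1.52 to 2.03 over the 4 library pairs, and this ranked 1450 of 16120. USP18 shares most of its sequence with USP41, a copy on the same chromosome, and how reads were split between them is not known, so both values are uncertain. USP41 had 17 and 22 counts in the knockdown libraries and 10 and 4 in the controls, and adding them to USP18 gave a log2FC of 0.87, an alternative chosen after seeing the data.

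**Figure D2:**
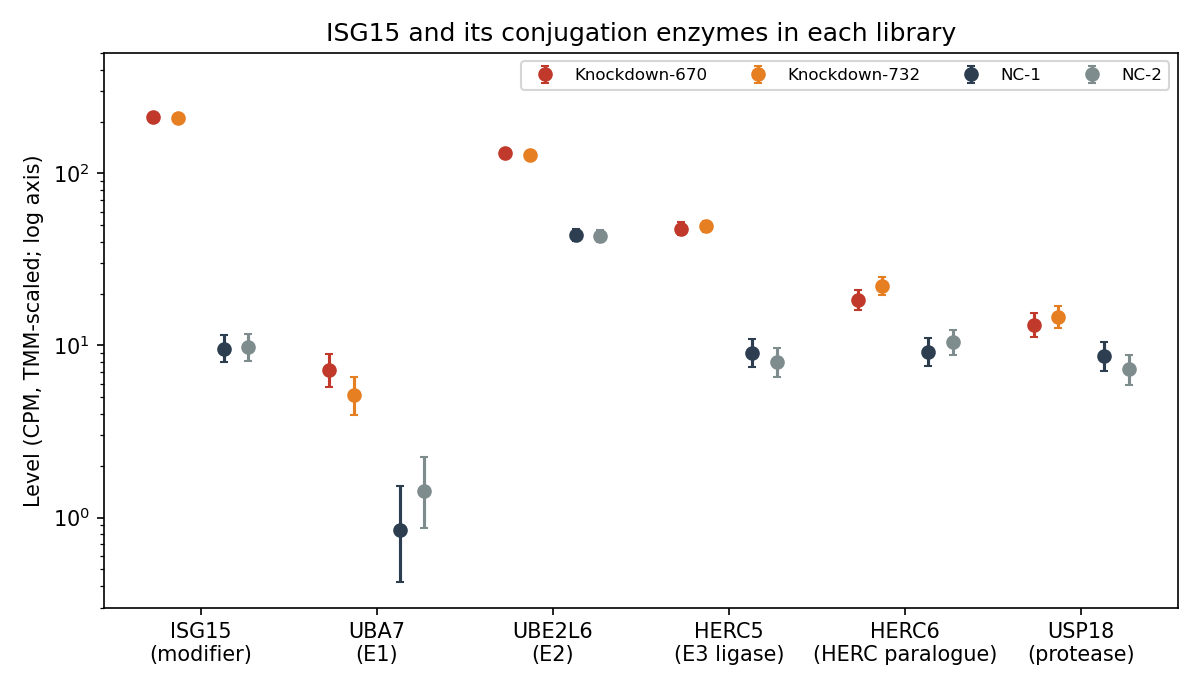
Level of each gene in each library (CPM on a log axis), with knockdown libraries in red and orange and controls in dark blue and grey; bars are exact 95% Poisson intervals for counting error alone. ISG15 sits at 211.5 and 209 CPM in knockdown and at 9.59 and 9.75 CPM in control, while USP18 sits at 13.2 and 14.7 CPM in knockdown and at 8.66 and 7.26 CPM in control.

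All 6 genes passed an adjusted p of 0.05 in the fit across all genes in the direction of higher in knockdown, as did 23.5% of the 16120 genes tested, and in all 6 both knockdown libraries were above both controls, as in 36.4% of genes tested. Since the genes were chosen on this contrast, nothing is read from those counts. The median log2FC was 1.99 over the 6 genes and -0.0024 over all genes tested, and for the same reason nothing is read from that gap. In order of log2FC, HERC5 and UBA7 could not be ranked, since the ranges of their library pairs (2.40 to 2.62 and 1.84 to 3.09) overlapped. Likewise HERC6 (0.82 to 1.27) and USP18 (0.60 to 1.02) overlapped. ISG15 (4.42 to 4.46) lay above the HERC5 and UBA7 ranges, and the range of UBE2L6 (1.55 to 1.59) lay between those of UBA7 and HERC6. These ranges span the 4 library pairs and leave out counting error. UBA7 had 11 and 19 counts in the controls, so its order against UBE2L6 is uncertain.

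**Figure D3:**
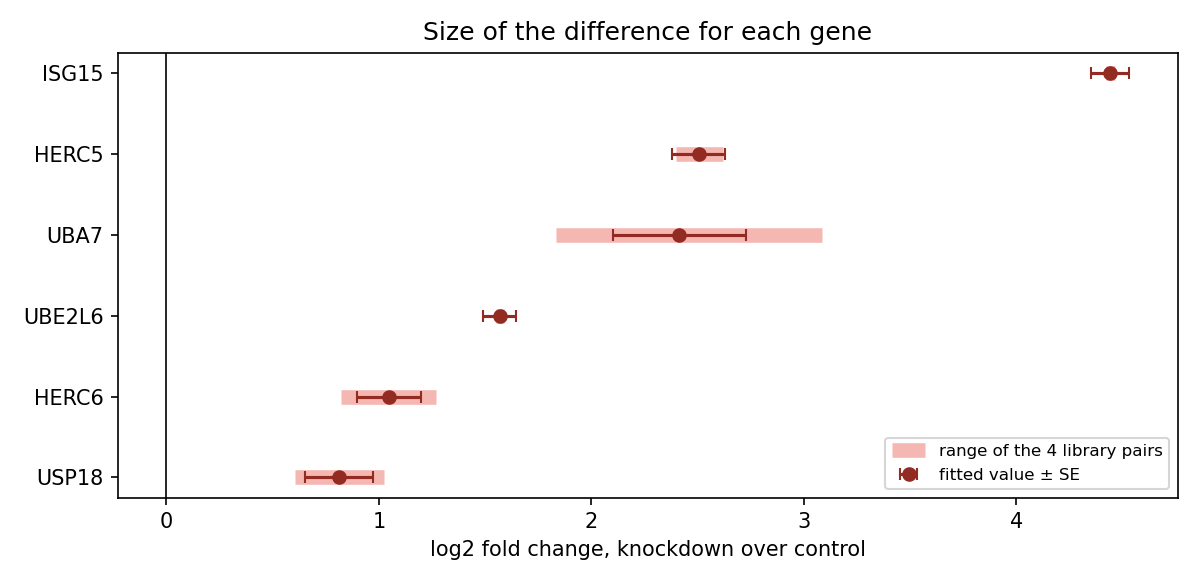
Log2 fold change of each gene, knockdown over control. Points are fitted values with their SE, and pale bars span the 4 pairs of a knockdown and a control library, hidden by the point where narrow; ISG15 is at 4.44, HERC5 and UBA7 overlap near 2.51 and 2.41, and so do HERC6 and USP18 near 1.05 and 0.81.

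Whether the knockdown libraries differed from each other was a separate question, and one that had no part in choosing the genes. In a fit with Knockdown-670 and Knockdown-732 as groups of their own, the residual spread came from the control pair only. Knockdown-732 over Knockdown-670 gave a log2 difference of -0.02 for ISG15 (SE 0.11), -0.03 for UBE2L6 (SE 0.11), 0.04 for HERC5 (SE 0.16) and 0.16 for USP18 (SE 0.22). The largest of the 6 were -0.49 for UBA7 (SE 0.35) and 0.26 for HERC6 (SE 0.20). None of the 6 passed (edgeR adjusted p = 0.9996 for each; 0 of 6 at an unadjusted p under 0.05), where 0.403% of all genes did (65 of 16120, with 929 at an unadjusted p under 0.05). That background depended on the settings, with 17 genes with library size only, 15 with a filter of at least 5 CPM in at least 2 libraries and 0 with no filter. A test that misses the threshold in this small design does not show that the libraries were alike.

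The make-up of the system differed between groups. To compare genes, CPM was divided by the length of all annotated exons of each gene in kilobases; how evenly the libraries cover a transcript is not stated, so these levels are approximate. ISG15 took 73.6 and 73.4% of the summed level of the 6 genes in Knockdown-670 and Knockdown-732, against 26.9 and 27.7% in NC-1 and NC-2. UBE2L6 took 19.5 and 19.3% in the knockdown libraries, against 52.6 and 53.0% in the controls. That smaller share was not a lower level, since UBE2L6 had 58.9 CPM per kb in knockdown and 19.9 in control. The shares use the values on which the genes were chosen, so they are a description. In knockdown the order of mean levels was ISG15 (223.5 CPM per kb), UBE2L6 (58.9), HERC5 (10.2), USP18 (6.55), HERC6 (3.50) and UBA7 (1.36). In control it was UBE2L6 (19.9), ISG15 (10.3), USP18 (3.74), HERC5 (1.79), HERC6 (1.69) and UBA7 (0.251), and there HERC5 and HERC6 overlapped between libraries.

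Ratios between members also differed between groups. The ratio of ISG15 to USP18, per kilobase, was 36.4 and 32.1 in Knockdown-670 and Knockdown-732, against 2.51 and 3.04 in NC-1 and NC-2. For ISG15 to its ligase HERC5 it was 22.45 and 21.5 in the knockdown libraries, against 5.37 and 6.16 in the controls. HERC5 stood above USP18 in Knockdown-670 and Knockdown-732, at ratios of 1.62 and 1.49, and below it in the controls, at 0.467 and 0.493. The ratio of the E2 UBE2L6 to the E1 UBA7 was 37.5 and 51.8 in the knockdown libraries, against 106 and 62.6 in the controls. That ratio rests on 11 and 19 UBA7 counts in NC-1 and NC-2, so whether it differed between groups beyond counting error is uncertain. With the length of the longest transcript instead of all exons, HERC6 came above HERC5 in the control order (2.60 against 2.43 CPM per kb), and the order in knockdown was the same.

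**Figure D4:**
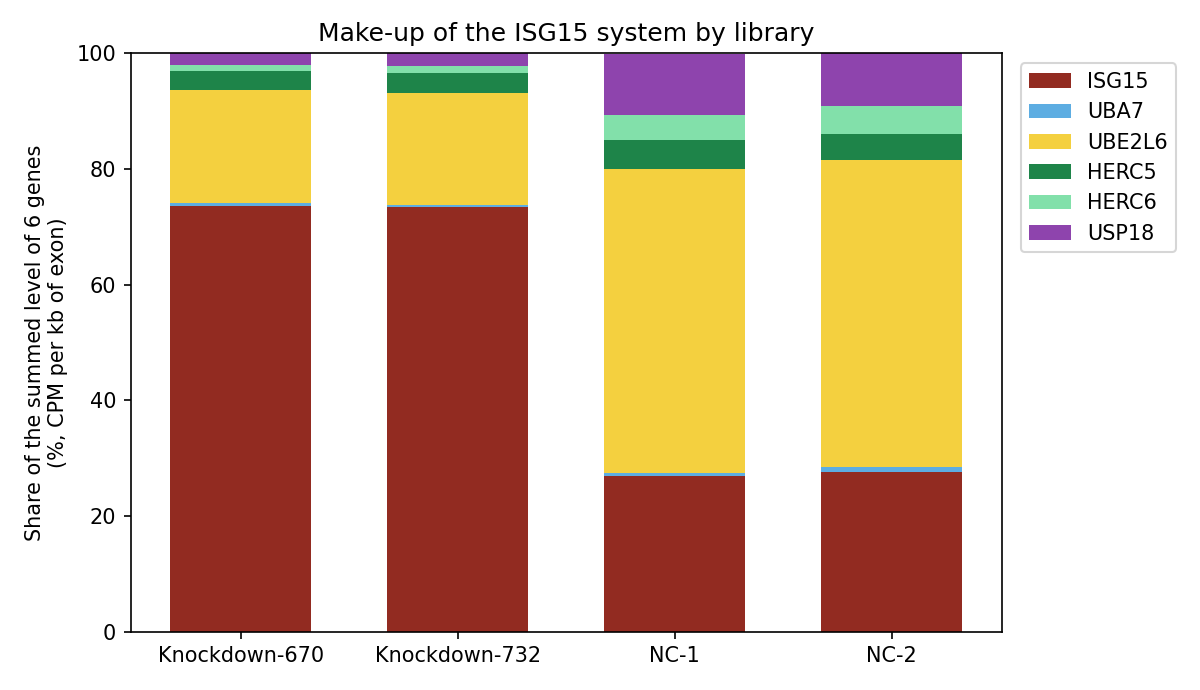
Share of each gene in the summed level of the 6 genes (percent, from CPM per kilobase of exon), with the knockdown libraries left of the controls. ISG15 fills 73.6 and 73.4% of the knockdown bars and 26.9 and 27.7% of the control bars, where UBE2L6 fills 52.6 and 53.0%.

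Each gene was then set beside others of its class, to see whether the enzymes of ubiquitin and other modifiers moved as well. Across all the lists of related genes, 147 of 148 genes were tested. Of those, 41 (27.9%) were higher and 46 (31.3%) lower in knockdown, where 23.5% and 22.8% of all genes tested were. That total includes the receptor arm (8 of 10 higher) and proteins reported to carry ISG15 (10 of 17 higher), both described below. It is therefore not a share of the classes alone. By class, the shares higher and lower were 28.6 and 14.3% (modifiers), 22.2 and 44.4% (E1), 13.3 and 43.3% (E2), 37.5 and 16.7% (HECT ligases) and 11.6 and 44.2% (USP proteases). With library size only as scaling, the split over all the lists was 32 higher and 56 lower, where 3243 of the 16120 genes tested were higher and 4265 lower. Of 14 ubiquitin and ubiquitin-like modifiers, 4 were higher, 2 were lower and 8 did not pass, with a median log2FC of 0.06. NEDD8, the modifier of cullins, had 102 ± 12.6 CPM in knockdown and 80.2 ± 5.63 CPM in control (SD, n = 2 each), and its log2FC was 0.35 ± 0.09 (SE; adjusted p = 0.0038 in edgeR). SUMO3 fell by 0.31 on the log2 scale. UBD, which encodes the ubiquitin-like FAT10, had 1.36 CPM in knockdown and 0.613 CPM in control and did not pass. Without Knockdown-670, 2 modifiers were higher and NEDD8 did not pass (edgeR adjusted p = 0.0879), and 1 was lower without NC-1, NC-2 or Knockdown-732, with adjusted p for SUMO3 of 0.0511, 0.0821 and 0.103 in that order.

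Of 9 other E1 proteins, 2 were higher, 4 were lower and 3 did not pass, with a median log2FC of -0.13. The 4 that fell belong to the NEDD8 and SUMO pathways. They were NAE1 (log2FC -0.87) and UBA3 (-0.45), which together activate NEDD8, and SAE1 (-0.72) and UBA2 (-0.47), which together activate SUMO. UBA1, the main ubiquitin E1, had a log2FC of 0.19, and no E1 passed as higher with library size only, without NC-2 or without Knockdown-670. UBA3 did not pass without NC-1 (edgeR adjusted p = 0.0765). By level per kilobase UBA7 was the lowest of the 10 E1 proteins in both groups, at 1.36 ± 0.326 CPM per kb in knockdown and 0.251 ± 0.0911 in control, while UBA1 had 87.7 ± 7.33 in knockdown and 76.7 ± 2.79 in control (SD, n = 2 each).

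Of 30 other E2 enzymes, 4 were higher, 13 were lower and 13 did not pass, with a median log2FC of -0.18. UBE2T, which works in the Fanconi anaemia pathway, had 21.1 ± 0.908 CPM in knockdown and 54.8 ± 6.66 CPM in control (SD, n = 2 each), and its log2FC was -1.38 ± 0.11 (SE; adjusted p = 9.91e-09 in edgeR). UBE2C, the E2 of the anaphase-promoting complex, fell by 1.26 and UBE2E3 by 0.98, while UBE2O rose by 0.89 on the log2 scale. The level of UBE2L6 per kilobase ranked 1st of 31 E2 enzymes in knockdown and 10th in control.

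Of 24 other HECT-type ligases, 9 were higher, 4 were lower and 11 did not pass, with a median log2FC of 0.06. Besides HERC3, NEDD4 rose by 0.69, while HECTD2 fell by 0.73 and UBE3A by 0.68 on the log2 scale. The calls in both directions depended on the settings. With library size only as scaling, 6 were higher and 6 lower. In DESeq2, 6 were higher and 3 lower, and HECTD2 did not pass (adjusted p = 0.0646). Fewer were called in both directions without Knockdown-670. Both other ligases reported for ISG15 passed, in opposite directions. TRIM25, a ligase that also acts on the RNA sensor RIG-I, had 479 ± 8.40 CPM in knockdown and 196 ± 3.96 CPM in control (SD, n = 2 each), and its log2FC was 1.29 ± 0.07 (SE; adjusted p = 3.24e-11 in edgeR). ARIH1 had 95.7 ± 4.31 CPM in knockdown and 117 ± 3.04 CPM in control (SD, n = 2 each), and its log2FC was -0.29 ± 0.07 (SE; adjusted p = 0.00328 in edgeR).

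Of 43 other USP proteases, 5 were higher, 19 were lower and 19 did not pass, with a median log2FC of -0.17. USP1, which removes ubiquitin from PCNA and FANCD2, had 18.8 ± 1.96 CPM in knockdown and 46.2 ± 2.72 CPM in control (SD, n = 2 each), and its log2FC was -1.29 ± 0.11 (SE; adjusted p = 3.41e-08 in edgeR). USP25 fell by 0.75, USP3 by 0.69 and CYLD, an inhibitor of NF-kB signalling, by 0.65 on the log2 scale. The highest value in the class was that of USP41 (log2FC 1.55 ± 0.49 SE, adjusted p = 0.0143 in edgeR), which rested on few counts. Its log2FC was 2.35 without NC-1, and it did not pass without NC-2 (log2FC 1.03, edgeR adjusted p = 0.192) or without Knockdown-732 (log2FC 1.40, edgeR adjusted p = 0.111). The higher calls numbered 3 without NC-1 and 2 without Knockdown-732. Of 5 USP proteases reported to react with ISG15 in vitro, none was higher and 2 were lower, USP14 (log2FC -0.51, edgeR adjusted p = 1.51e-05) and USP5 (-0.17, edgeR adjusted p = 0.0488). USP5 did not pass without NC-1 (0.205), Knockdown-670 (0.113) or Knockdown-732 (0.167).

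**Figure D5:**
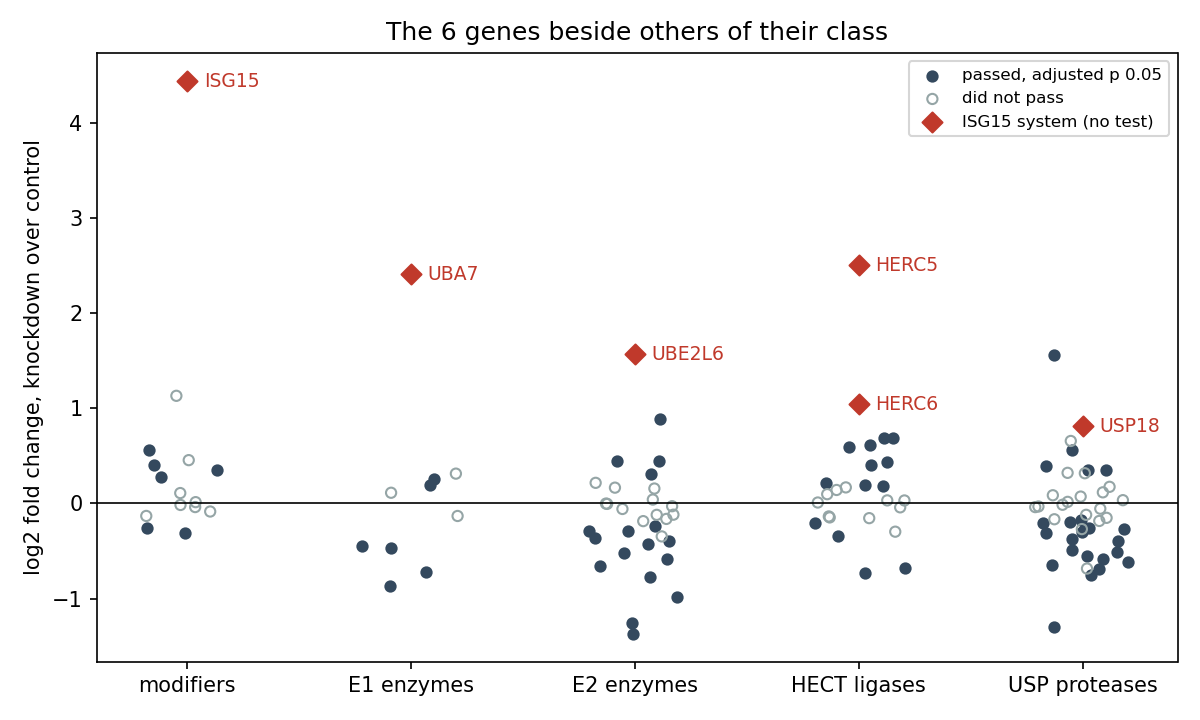
Log2 fold change, knockdown over control, of each gene (red diamonds, no test) beside other genes of its class; filled circles passed an adjusted p of 0.05 in edgeR and open circles did not. ISG15 at 4.44 and UBA7 at 2.41 stand above every other gene plotted in their columns, while USP18 at 0.81 stands below USP41 at 1.55. The diamonds were chosen on this contrast, so their place in a column is a description only.

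The receptor arm that USP18 acts on, and the factors that bind ISRE elements, were described from a list of 10 genes. Of these 8 were higher, none was lower and 2 did not pass, with a median log2FC of 0.61. Over all genes tested, 23.5% were higher and 22.8% lower. The list was drawn up with earlier results of these data known, so its counts and p-values are a description. IRF7, an interferon-inducible transcription factor, had 63.0 ± 0.669 CPM in knockdown and 8.15 ± 1.05 CPM in control (SD, n = 2 each), and its log2FC was 2.95 ± 0.12 (SE; adjusted p = 1.47e-12 in edgeR). Of the ISGF3 subunits, STAT2 rose by 1.99 and IRF9 by 1.18 on the log2 scale. The receptor subunit IFNAR2, to which USP18 binds, rose by 0.64 and IFNAR1 by 0.29, while the kinase TYK2 (0.18) and IRF3 (-0.14) did not pass. Among the other partners, SKP2 and the integrin subunit ITGB2 did not pass (log2FCs 0.06 and -0.29), and ITGAL, which forms with ITGB2 a receptor for free ISG15, had 2 and 6 counts in the knockdown libraries and 6 and 15 in the controls and was not tested.

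Of 17 proteins reported to carry ISG15, among them JAK1 and IRF3 of the receptor arm, 10 were higher, 4 were lower and 3 did not pass, with a median log2FC of 0.37. Over all genes tested, 23.5% were higher and 22.8% lower. This list, too, was drawn up with earlier results known, so its counts and p-values are a description. The antiviral proteins IFIT1 (log2FC 4.91, SE 0.11) and MX1 (4.50, SE 0.09) were highest, with edgeR adjusted p = 4.48e-16 and 1.05e-16. They were followed by DDX58, which encodes the RNA sensor RIG-I, at 2.66. PCNA, the clamp of the replication fork, had 99.1 CPM in knockdown and 184 CPM in control and fell by 0.90, and TSG101, a sorting factor, fell by 0.59 on the log2 scale.

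Genes beside the members had differences of both signs. On GENCODE v29 (GRCh38), the nearest protein-coding genes were taken on each side. HES4 and AGRN, around ISG15 on chromosome 1, had log2FCs of 0.77 (edgeR adjusted p = 0.00889) and 1.14 (7.23e-10). TRAIP, beside UBA7 on chromosome 3, fell by 1.65 on the log2 scale (edgeR adjusted p = 5.21e-07). SERPING1, beside UBE2L6 on chromosome 11, had 10 and 6 counts in the knockdown libraries and 12 and 14 in the controls and did not pass. PYURF, next to HERC5 on chromosome 4, had a log2FC of -0.08 (edgeR adjusted p = 0.653), and PPM1K, next to HERC6, one of 0.92 (0.0223). USP18 on chromosome 22 had no tested neighbour. AL645608.1, an antisense gene that overlaps ISG15, has no row of its own in the count table, and no source states whether counting used strand, so reads of that antisense pair cannot be told apart. AL645608.3, a processed pseudogene on the strand opposite to ISG15, also overlaps it and has no row. MIR5193, a microRNA gene, overlaps UBA7 on the same strand and has a row of its own. How reads were split between MIR5193 and UBA7 is not known.

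For each gene, the 3 most alike profiles were found by the Euclidean distance between log2 CPM values, each centred on the gene's mean over the 4 libraries, among 11900 other genes that averaged 5 CPM or more. For ISG15 they were MX1 (distance 0.116), OASL (0.361) and IFIT1 (0.508). For HERC5 they were IFI16 (0.0874), APOL2 (0.115) and TRIM22 (0.121). For UBA7 they were GFRA1, NPR1 and WISP2 (0.245 to 0.389), and for UBE2L6 they were PODXL, MEG3 and SEMA4B (0.022 to 0.0464). For HERC6 they were ALS2CL, HDAC10 and COL4A3 (0.0566 to 0.0676), and for USP18 they were FAM126B, NS3BP and CEP170B (0.0494 to 0.0652). Within a distance of 0.2 lay 1 gene for ISG15, 0 for UBA7, 8 for HERC5, 54 for HERC6, 60 for UBE2L6 and 145 for USP18. Among the members themselves, HERC6 and USP18 were closest (0.388), and ISG15 and USP18 were farthest apart (3.63). Over 4 libraries, this distance largely follows the difference between knockdown and control, on which the members were chosen. The alike genes and the numbers of them are therefore a description, and nothing more is read from them.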

How the data were processed

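The deposited data are whole-number counts by gene symbol, not normalized by the authors, in 1 table for 4 A549 libraries of 12149767 to 12938143 counts. Per the labels' protocols, RNA was extracted with Trizol and sequenced by an Ion Proton protocol. GRCh37 is the build in the submitters' processing notes; the aligner, counter, annotation and strand setting were not given in the sources used here. Each library was assigned from its title.

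The tests used R 4.3.3 and edgeR 4.0.16 (TMM scaling, filterByExpr, robust quasi-likelihood test, Benjamini-Hochberg adjustment at 0.05 over 16120 genes). Each SE was taken from the log2FC and the square root of its F statistic. Another fit with 3 groups compared the knockdown libraries. Lengths came from GENCODE v29 (GRCh38) by symbol, and promoters from RefSeq. Log2 CPM for likeness used a prior count of 2. The code of the fits was checked on simulated counts, and no result here rests on that check. Alternatives were DESeq2 1.42.0, limma-voom (limma 3.58.1), other scalings and filters, and each library left out.

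The members and lists were chosen with earlier results of these data known. Named were the 6 members, up to 4 called genes of largest change with at least 5 CPM in each list, the closest copies, neighbours and ligases, and the 3 most alike genes per member; other list genes and adjacent genes fall outside this rule and were chosen after seeing their values. Some genes and results under this rule are not reported here.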

Additional observations from a re-analysis of the deposited data

How the results depend on the processing

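All 6 genes were higher in knockdown under each of the 11 alternatives (3 other scalings, 2 other filters, DESeq2, limma-voom and each of the 4 libraries left out). The genes were chosen on this contrast in the same libraries, so their direction is a description and not support. UBA7 passed the filter of at least 5 CPM only through its knockdown libraries. The log2 fold changes ran from 4.38 to 4.45 for ISG15, 2.09 to 2.84 for UBA7, 1.51 to 1.58 for UBE2L6, 2.42 to 2.59 for HERC5, 0.896 to 1.17 for HERC6 and 0.684 to 0.938 for USP18. Between the knockdown libraries, 65 genes passed in edgeR, 17 with library size only, 15 with the filter of at least 5 CPM and 0 with no filter (770 at an unadjusted p under 0.05); the cause was not tested. DESeq2 called 28 list genes higher and 35 lower, against 41 and 46 in edgeR, and over all genes 2719 and 2592, against 3785 and 3678. UBE2L3 turned to -0.023 with library size only and ran from -0.003 (without NC-1) to 0.074 (without NC-2) with a library left out, and passed in none of these. USP5 kept its direction but failed the threshold in 6 of 11 alternatives and SUMO3 in 4. In DESeq2 no E1 and 2 USP proteases were higher, no modifier was lower, and 2 proteins that carry ISG15 were lower. Library size only moved the median of all genes to -0.07, and gave 1 fallen gene in the receptor arm. No paired analysis was possible because the groups share no replicate number. Depth limits UBA7, with 11 and 19 counts in the controls, and USP41, with 4 to 22 counts per library.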
